A study of Mus musculus with 6 samples.

Results

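The genes described here make the machinery that builds ribosomes. They are 36 mouse genes for the transcription factor MYC, RNA polymerase I and its cofactors, the snoRNA-protein particles that modify ribosomal RNA, and the factors that process the ribosomal RNA precursor and assemble the subunits. The members were chosen by gene symbol, and had to reach 1 FPKM (fragments scaled to transcript length and mapped depth) in 3 or more of the 6 libraries. All 36 listed symbols had a row in the deposited values and all 36 met the requirement, among 9087 genes that met it and 24346 symbols in all. The lowest member, Utp20, was below 1 FPKM in 1 library only, and 0 members lay outside the requirement.

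The 6 libraries are RNA sequencing of splenic plasma cells, 3 sorted as IgG1 and 3 sorted as IgM. In both groups the cells descend from congenically marked B1-8germ B cells, whose knocked-in heavy chain recognises the hapten NP. The B cells were transferred into wild-type C57BL/6J hosts that were then given NP-CGG in alum, and donor-derived plasma cells were sorted from the spleen on day 7. The groups therefore share donor B cells, host strain, antigen and time, and the labels set them apart by isotype alone. The sources used here give neither the ages of the animals nor whether replicate libraries came from different mice. The p-values therefore reflect library-to-library spread, part of which may be technical.

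Ribosome production begins in the nucleolus, where RNA polymerase I copies the repeated ribosomal DNA into a long precursor with the help of the factor UBF. Box C/D particles guide 2'-O-methylation of that precursor and box H/ACA particles guide its pseudouridylation, while large assemblies cleave it and fold it with ribosomal proteins into the small and large subunits. MYC is a known activator of many of these genes. Plasma cells carry a heavy load of protein synthesis, for which ribosomes are the basic equipment.

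Each library held FPKM for all symbols. The approximate depth was 15000000 fragments in each IgG1 library and 16000000 to 18000000 in the IgM libraries. It was estimated from the pile-up of low FPKM times transcript length, taken to stand for a single fragment. Plasma cell genes marked both groups, with Xbp1 at 6432 to 6862 FPKM in IgG1 and 5354 to 6021 in IgM libraries, and Sdc1 at 478 to 614 in IgG1 and 444 to 551 in IgM libraries. Tnfrsf17, the gene for BCMA, a survival receptor of plasma cells, was at 67.4 to 97.0 in IgG1 and 568 to 713 in IgM libraries. Prdm1, which encodes the plasma cell regulator BLIMP1, was at 18.5 to 25.9 in IgG1 and 35.8 to 52.0 in IgM libraries, and Jchain at 14208 to 16962 in IgG1 and 24812 to 28583 in IgM libraries. Of markers of other cell types, Pax5, Cr2, Bcl6, Cd3g, Cd8a, Adgre1, S100a8, S100a9, Ncr1, Klrb1c and Gzma were below 1 FPKM in every library. Markers of other B cell stages summed to 97.2 to 122 FPKM in IgG1 and 123 to 154 in IgM libraries, T cell markers to 1.13 to 7.29 in IgG1 and 2.15 to 4.73 in IgM libraries. The summed level of 7 myeloid markers was 34.5 to 45.7 FPKM in IgG1 and 64.2 to 69.2 in IgM libraries, most of it from Cd68, and the defining marker Csf1r was at 0 to 0.0162 in IgG1 and 1.11 to 2.14 in IgM libraries. The part of this in the results below was not tested. A relation with transcript length is given beside the members below.

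Of the 36 ribosome-building genes 1, Nop10, was higher in IgG1 plasma cells with limma's moderated test adjusted over all 9087 genes, and 0 were lower. Of all genes tested 6.02% were called at an adjusted p under 0.05, 4.26% as higher and 1.76% as lower in IgG1. Higher calls made up 70.7% of these, against 48.5% with quantile normalization and 31.1% with rescaling without Jchain. The members' share of 2.78% is a single gene, and whether it differs from this background was not tested. At an unadjusted p under 0.05 there were 7 members, against 22.2% of all genes, and 7 members had groups that did not overlap, 4 above and 3 below, against 27.2% of all genes (13.7% above and 13.5% below). The median log2 difference (IgG1 minus IgM, of FPKM + 1) was 0.03 over the members, with 20 positive and 16 negative, and -0.05 over all genes tested. With libraries rescaled to 1 sum that leaves out Jchain, which encodes the joining chain of polymeric antibodies, the medians were -0.15 over the members and -0.25 over all genes.

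The intervals of the differences were narrow for most members. For 27 of the 36 members the 95% interval of the log2 difference, taken gene by gene, lay between -1 and 1, so that a 2-fold change of FPKM + 1 in either direction fell outside it. The same held for 44.3% of all genes tested. Interval widths ran from 0.59 for Polr1d to 2.44 for Utp20. A p above the threshold does not show that the groups were alike, since differences within these intervals remain possible.

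**Figure D1:**
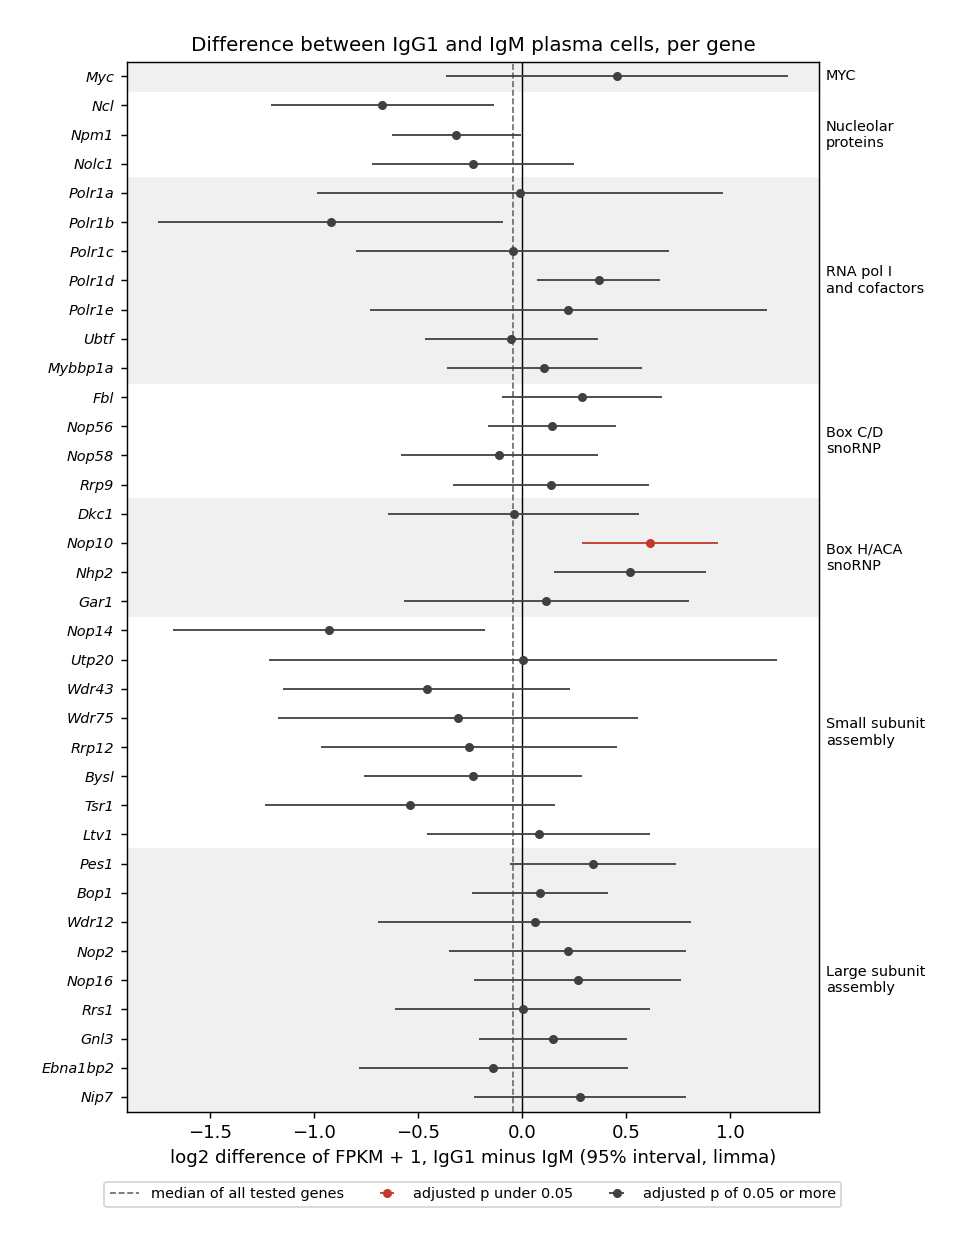
Log2 difference of FPKM + 1 (horizontal axis, IgG1 minus IgM) for each of the 36 genes, grouped by role down the page, with limma's 95% interval as a bar. Nop10, at 0.62, is the gene drawn as past the adjusted threshold, and most other intervals cross 0, the dashed line being the median of all tested genes (-0.05).

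The box H/ACA particle, which guides pseudouridylation and also forms part of telomerase, contained the called gene. Nop10, a small structural protein of the particle, had 164, 162 and 150 FPKM in IgG1 libraries 1 to 3, against 91.3, 127 and 95.2 in IgM libraries 1 to 3. Every IgG1 library lay above every IgM library, with a mean of 159 ± 7.63 in IgG1 and 104 ± 19.4 in IgM cells (SD, n = 3 each). The log2 difference was 0.62 (SE 0.15, limma adjusted p = 0.0357). In bulk samples fewer cells with a transcript and less of it per cell cannot be told apart. Without IgM library 2 the difference was 0.76 and the adjusted p 0.0171. Without any other single library the difference was 0.53 to 0.66 and the adjusted p 0.0659 to 0.173. The difference was 0.44 with quantile-normalized values (adjusted p = 0.111) and 0.39 with the rescaling that omits Jchain (adjusted p = 0.109). It was 0.62 as before without the filter (adjusted p = 0.136) or without the intensity trend (adjusted p = 0.197).

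Nhp2, which binds beside Nop10 in the same particle, was at 129, 121 and 186 FPKM in IgG1 against 94.6, 99.2 and 104 in IgM libraries. Its groups did not overlap either, and the highest value was that of IgG1 library 3 (log2 difference 0.52, SE 0.17, adjusted p = 0.0913). Nhp2 shares exonic sequence with the opposite-strand gene Rmnd5b, and whether counting used strand is not stated. The catalytic subunit of the particle, the pseudouridine synthase dyskerin encoded by Dkc1, showed no such separation. Dkc1 was at 32.96, 23.1 and 20.5 FPKM in IgG1 and 34.6, 27.5 and 17.97 in IgM libraries, and the remaining core gene Gar1 averaged 9.30 ± 1.94 in IgG1 and 8.39 ± 0.55 in IgM cells (SD, n = 3 each). The ratio of Nop10 to Dkc1 FPKM within a library was 4.98 to 7.31 in IgG1 and 2.64 to 5.30 in IgM libraries, ranges that overlap.

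In GRCm38 Nop10 lies on chromosome 2 from 112261926 to 112263269 on the plus strand and Nhp2 on chromosome 11 from 51619735 to 51623714, both as protein-coding genes. The E-box CACGTG, the classical binding sequence of MYC and its partner MAX and its own reverse complement, was searched in the 250 bases before the annotated starts of RefSeq (GRCm38.p6), which were found for 30 of the 36 genes. It was present in 1 of these 30, Nop2, against 6.86% of all 27025 genes in that table and 10.4% of the tested genes with an entry. The upstream sequences of Nop10, the called gene, and of Nop2, the one with the E-box, are shown 5′ to 3′ on the plus strand, with the E-box in capitals; Nop10 lies at chr2:112261676-112261925 and Nop2 at chr6:125131633-125131882.
Nop10: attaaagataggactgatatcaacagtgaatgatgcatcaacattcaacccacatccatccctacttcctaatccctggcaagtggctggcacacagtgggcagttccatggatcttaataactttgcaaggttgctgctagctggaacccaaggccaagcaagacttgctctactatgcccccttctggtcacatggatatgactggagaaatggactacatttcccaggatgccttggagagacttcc
Nop2: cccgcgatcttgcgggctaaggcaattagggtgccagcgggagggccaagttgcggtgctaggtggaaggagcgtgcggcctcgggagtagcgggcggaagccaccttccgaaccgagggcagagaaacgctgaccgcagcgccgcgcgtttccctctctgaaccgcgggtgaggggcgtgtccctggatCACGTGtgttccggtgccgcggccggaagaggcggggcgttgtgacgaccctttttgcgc
In Nop2 the E-box begins 60 bases before the start. A match is a description of the letters and not of binding, and Nop2, which encodes a methyltransferase of the large-subunit RNA, was at 31.3, 38.0 and 56.2 FPKM in IgG1 and 37.1, 44.5 and 25.3 in IgM libraries (log2 difference 0.22, SE 0.26, adjusted p = 0.684).

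RNA polymerase I and its cofactors had 0 of 7 genes past the threshold, with 3 positive and 4 negative differences (median -0.01). Polr1b, which encodes the second-largest catalytic subunit, was at 3.65, 9.72 and 4.51 FPKM in IgG1 against 12.2, 9.88 and 11.9 in IgM libraries. The groups did not overlap, but the value of IgG1 library 2 was close to that of the lowest IgM library (log2 difference -0.92, SE 0.38, adjusted p = 0.180). The largest subunit gene Polr1a did not follow it, at 3.68, 9.79 and 3.10 FPKM in IgG1 and 3.75, 6.41 and 5.02 in IgM libraries. In both genes IgG1 library 2 was the highest of its group by more than 2-fold. The ratio of Polr1b to Polr1a FPKM was 0.990 to 1.46 in IgG1 and 1.54 to 3.26 in IgM libraries, ranges that nearly meet. It was the one ratio without overlap among 10 computed within complexes. Of all genes tested, taken singly, 27.2% had groups without overlap, and whether 1 ratio of 10 exceeds chance was not tested.

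Polr1c and Polr1d encode subunits shared with RNA polymerase III. Polr1d was at 180, 145 and 179 FPKM in IgG1 against 129, 138 and 121 in IgM libraries, without overlap (log2 difference 0.37, SE 0.14, adjusted p = 0.135). Polr1c went in no common direction, with 16.4, 44.7 and 45.6 in IgG1 and 25.5, 38.8 and 37.6 in IgM libraries. Polr1e, a subunit specific to polymerase I, spread over 4.17 to 11.6 in IgG1 and 3.57 to 8.50 in IgM libraries. Ubtf, which encodes UBF, was at 31.2 ± 3.25 in IgG1 and 32.2 ± 1.52 FPKM in IgM cells (SD, n = 3 each), and its 95% interval of -0.47 to 0.36 was among the narrower ones. Mybbp1a, whose nucleolar product binds MYB and acts on ribosomal RNA synthesis, was at 39.2 ± 9.45 in IgG1 and 35.8 ± 4.76 in IgM cells.

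MYC itself was expressed at a low level in both groups. Myc was at 12.8, 9.38 and 9.14 FPKM in IgG1 and 4.13, 10.96 and 8.16 in IgM libraries. IgM library 2 lay within the IgG1 range and the other IgM libraries below it, so the groups overlap (log2 difference 0.46, SE 0.38, adjusted p = 0.531, 95% interval -0.36 to 1.28).

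The 3 genes for abundant nucleolar proteins all had negative differences (median -0.32), none of them past the threshold. Ncl encodes nucleolin, a major RNA-binding protein of the nucleolus, and was at 25.3, 18.4 and 14.8 FPKM in IgG1 against 34.8, 26.5 and 32.1 in IgM libraries. Its groups did not overlap (log2 difference -0.67, SE 0.25, adjusted p = 0.134). Npm1, which encodes the histone and ribosome chaperone nucleophosmin, was at 186, 175 and 140 in IgG1 and 220, 185 and 218 in IgM libraries. IgG1 library 1 lay just above the lowest IgM library (log2 difference -0.32, SE 0.14, adjusted p = 0.217). Nolc1, a chaperone of snoRNA particles, averaged 27.2 ± 5.53 in IgG1 and 32.0 ± 4.52 in IgM cells (SD, n = 3 each).

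The box C/D genes had the lowest median SD of log2(FPKM + 1) of all roles in both groups, 0.16 in IgG1 and 0.13 in IgM cells. The methyltransferase fibrillarin, encoded by Fbl, was at 64.3, 85.1 and 84.2 FPKM in IgG1 and 52.9, 69.4 and 68.6 in IgM libraries, so the lowest IgG1 library lay within the IgM range (log2 difference 0.29, SE 0.18, adjusted p = 0.377). Its scaffold partners Nop56 and Nop58 averaged 101 ± 6.91 and 49.6 ± 14.8 in IgG1 and 91.0 ± 8.05 and 52.1 ± 4.45 in IgM cells. Rrp9, which belongs to the U3 particle, averaged 23.4 ± 1.32 in IgG1 and 21.2 ± 1.96 in IgM cells (SD, n = 3 each). All 4 intervals lay between -1 and 1.

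Neither small-subunit nor large-subunit factors had a gene past the threshold. Of 8 small-subunit genes 6 were negative (median -0.28), and of 9 large-subunit genes 8 were positive (median 0.15). The longer lists of other genes with these roles did not share these signs, with 23 positive and 23 negative of 46 small-subunit genes (median -0.00) and 19 positive and 33 negative of 52 large-subunit genes (median -0.17). Nop14, a component of the small-subunit processome, was at 12.999, 6.55 and 5.56 FPKM in IgG1 against 16.5, 17.8 and 13.4 in IgM libraries. The groups did not overlap, although IgG1 library 1 lay next to the lowest IgM library (log2 difference -0.93, SE 0.34, adjusted p = 0.138). Without IgG1 library 1 the difference was -1.26 and the adjusted p 0.0448. Processome genes Wdr43, Wdr75 and Utp20 gave -0.46, -0.31 and 0.00 with overlapping groups. Utp20, a very long transcript, was at 4.14, 4.44 and 0.353 in IgG1 and 1.65, 2.31 and 3.28 in IgM libraries, so that IgG1 library 3 stood apart from the rest. The later-acting factors Rrp12, Bysl, Tsr1 and Ltv1 gave -0.26, -0.24, -0.54 and 0.08, each with overlapping groups.

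Among large-subunit genes, Pes1 encodes a member of the PeBoW complex with BOP1 and WDR12. It was at 36.6, 41.9 and 42.6 FPKM in IgG1 against 34.7, 30.2 and 30.0 in IgM libraries, without overlap (log2 difference 0.34, SE 0.18, adjusted p = 0.305). Its partners did not separate the groups. Bop1 averaged 87.6 ± 10.6 in IgG1 and 82.1 ± 3.92 in IgM cells, and Wdr12 14.8 ± 7.55 in IgG1 and 13.3 ± 2.13 in IgM cells (SD, n = 3 each). The other genes were Nop16, Rrs1, Gnl3 (which encodes nucleostemin), Ebna1bp2 and Nip7, with log2 differences of 0.27, 0.00, 0.15, -0.14 and 0.28 and overlapping groups in every case.

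**Figure D2:**
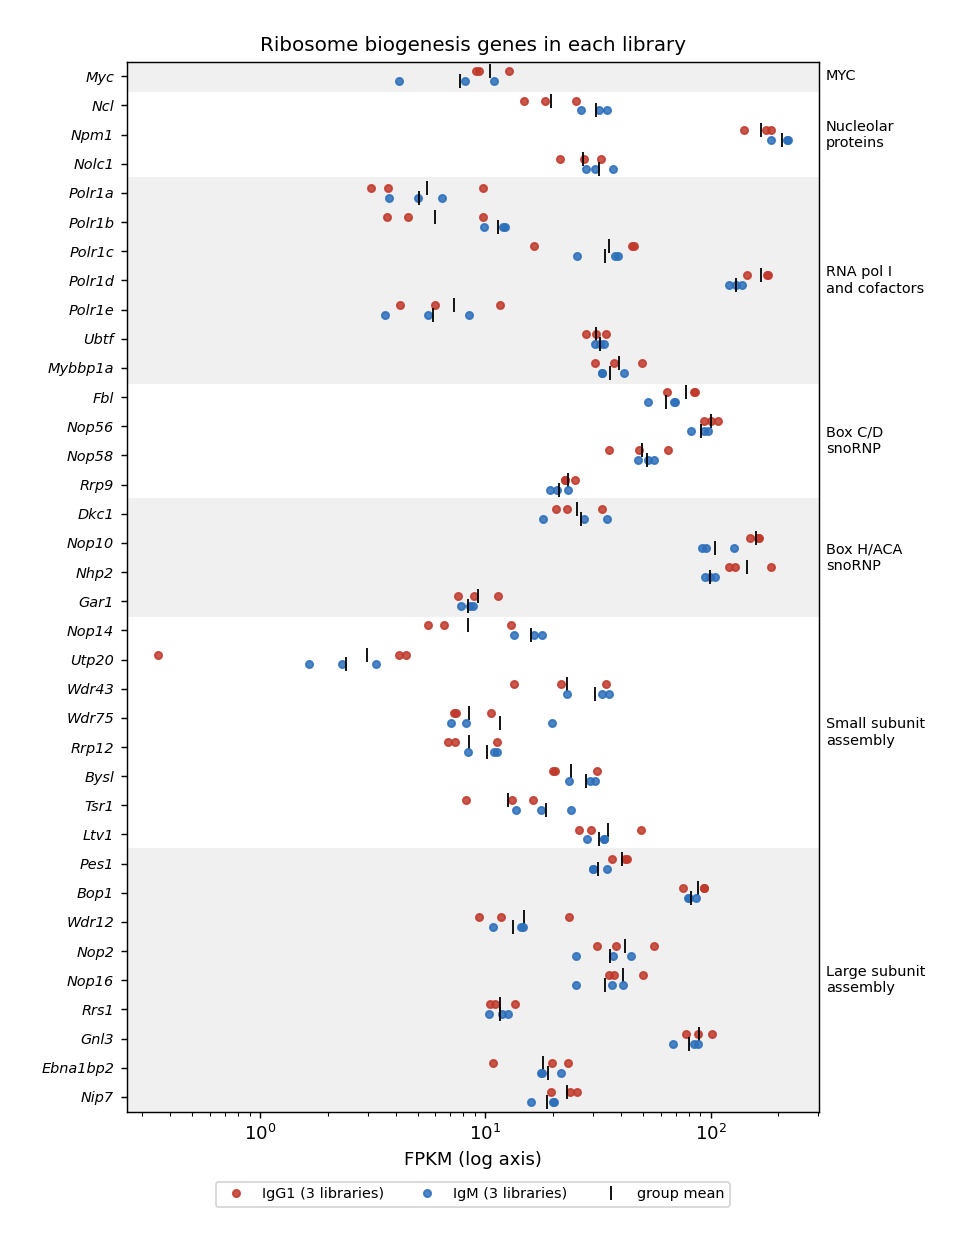
FPKM of each gene on a log axis, with 1 point per library (IgG1 above IgM in each row) and a tick at each group mean (n = 3 each). Levels run from Utp20, at 0.353 to 4.44 in the 6 libraries, to Npm1 and Polr1d, and the IgG1 and IgM points of most genes interleave.

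Levels per transcript length spanned a wide range that the isotypes shared. Polr1d, Npm1, Nop10, Nhp2 and Nop56 were the 5 highest in IgG1 cells, at means of 168, 167, 159, 145 and 101 FPKM. The same 5 genes led in IgM cells, in the order Npm1, Polr1d, Nop10, Nhp2 and Nop56, at 208, 129, 104, 99.4 and 91.0. The first 4 in IgG1 cells did not differ beyond their spread, while in IgM cells Npm1 stood above Polr1d in every library. Utp20 and Polr1a were lowest in both, at means of 2.98 and 5.53 in IgG1 and 2.41 and 5.06 in IgM cells. Summed over the 36 genes, FPKM came to 1589 to 1613 in IgG1 and 1466 to 1480 in IgM libraries. As a share of all FPKM they came to 0.177% to 0.186% in IgG1 and 0.183% to 0.203% in IgM libraries, and these ranges overlap.

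The members varied more among IgG1 than among IgM libraries. The SD of log2(FPKM + 1) was larger in IgG1 for 28 of 36 members (77.8%), with medians of 0.33 in IgG1 and 0.19 in IgM cells. The same held for 67.1% of all genes tested, with medians of 0.36 in IgG1 and 0.25 in IgM cells. The 7 genes of the RNA polymerase I group all spread more in IgG1. IgG1 library 3 was the lowest of the 6 libraries for 11 members and the highest for another 11, which is 30.6% of the members at either end. Over all genes tested it was also the most extreme library, the lowest for 25.2% and the highest for 24.96%.

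Transcript length went along with the differences. Across the 36 members the Spearman correlation of the log2 difference with GENCODE transcript length was -0.61, and across 9040 tested genes it was -0.36, where the points share the same 6 libraries. Of the 18 shorter members 16 were positive (median 0.18), and of the 18 longer members 14 were negative (median -0.19). Within single libraries the correlation of the members' deviations with length was -0.10, -0.01 and -0.60 in IgG1 libraries 1 to 3 and 0.43, 0.17 and 0.43 in IgM libraries 1 to 3. With each library's trend on length and GC content removed over all genes, the correlation over the members was -0.04, and the medians of the shorter and longer members were 0.17 and -0.01. Nop10 was then at 0.60 (adjusted p = 0.0530), Nhp2 at 0.31, Polr1d at 0.19, Ncl at -0.20, Nop14 at -0.75, Polr1b at -0.72 and Pes1 at 0.50, where Pes1 was farther from 0 than before the correction and the other 6 nearer. Of the 36 members 0 were past the threshold after this correction with limma, 4 (Npm1, Nop10, Nop14 and Pes1) had an unadjusted p under 0.05, against 17.8% of all genes, and 2.94% of all genes were past the adjusted threshold. The lengths are GENCODE's and not the authors', and for a few genes, such as Ncl at 8202 nt, they depend on the transcript annotated.

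**Figure D3:**
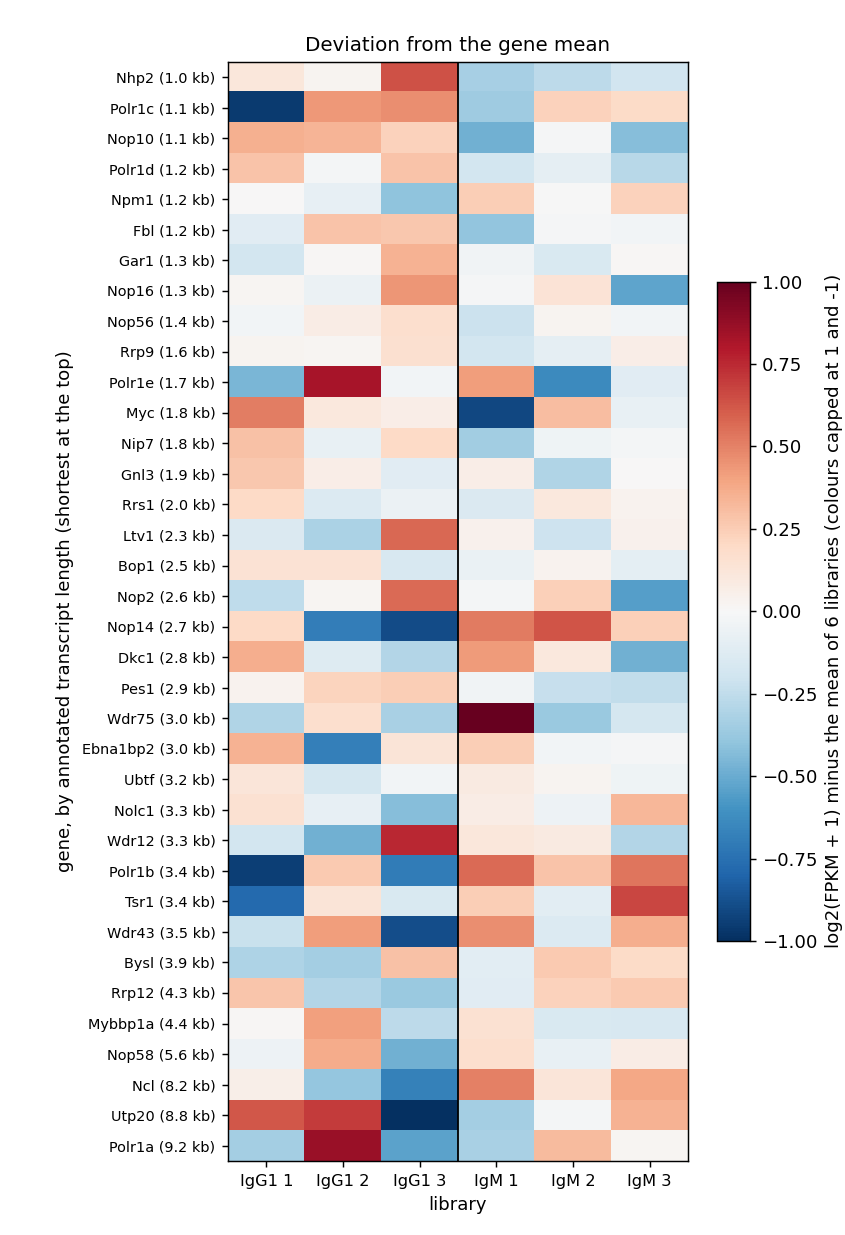
Deviation of log2(FPKM + 1) from the mean over 6 libraries, in colour, for each gene (rows, from the shortest to the longest transcript) and library (columns, IgG1 left of IgM). IgG1 library 3 holds both the highest value of 11 genes, mostly in the upper rows, and the lowest of 11 genes, mostly in the lower rows.

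**Figure D4:**
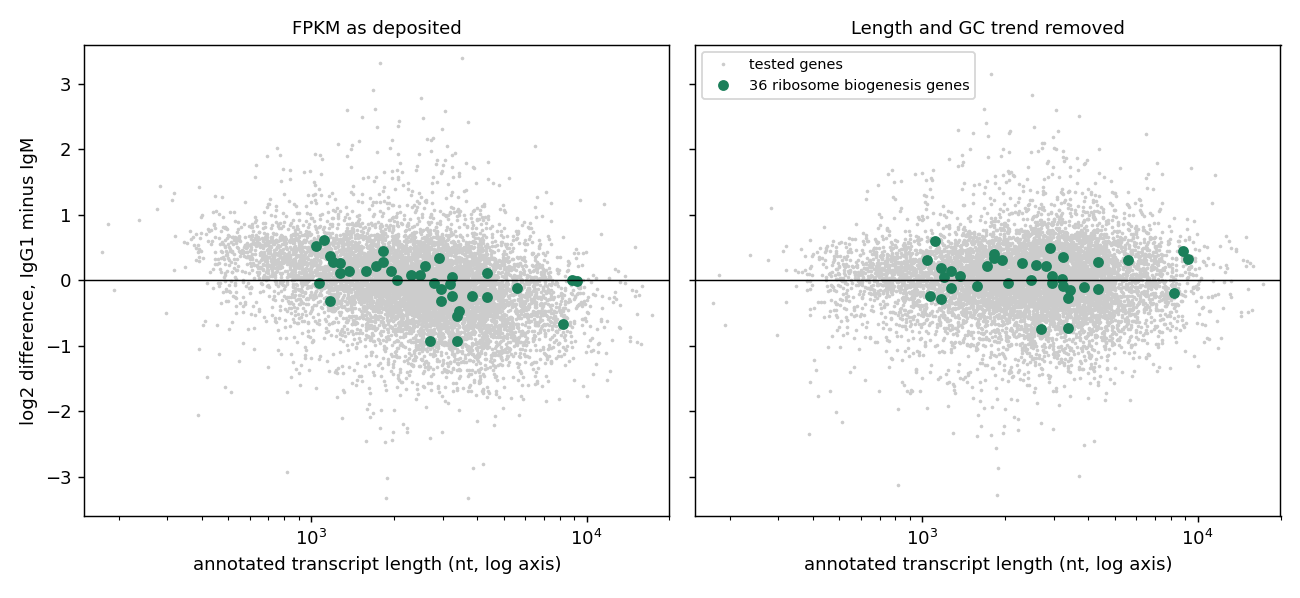
Log2 difference (IgG1 minus IgM, vertical axis) against annotated transcript length on a log axis, with FPKM as deposited on the left and with the length and GC trend removed on the right. The 36 genes slope downwards on the left (Spearman correlation -0.61) and not on the right (-0.04), within the cloud of all tested genes with a length.

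Further genes of the same pathway were also mostly below the threshold. Of 122 tested genes in 4 further lists, 4 were higher and 0 lower in IgG1, a share of 3.28% against 6.02% of all genes tested. The median of the 122 was -0.05. Polr2f and Polr2k encode small subunits common to polymerases I, II and III and were 2 of 14 further polymerase I genes, at 238 ± 10.4 and 207 ± 13.8 FPKM in IgG1 and 131 ± 31.1 and 129 ± 9.32 in IgM cells (log2 differences 0.88 and 0.68, limma adjusted p = 0.0116 and 0.0115; n = 3 each). Eif6, which keeps the large subunit from joining too early, was 1 of 52 large-subunit genes (192 ± 7.75 in IgG1 and 136 ± 16.0 in IgM cells, adjusted p = 0.0443). Znhit3, which helps assemble box C/D particles, was 1 of 10 snoRNP assembly genes (91.2 ± 27.4 in IgG1 and 45.0 ± 2.64 in IgM cells, adjusted p = 0.0261). Of 46 further small-subunit genes 0 were past the threshold and 6 had an unadjusted p under 0.05 with limma, against 22.2% of all genes tested. The highest of the 46 were Fcf1 and Emg1 (adjusted p 0.236 and 0.0838 with limma). Fcf1 was at 193 ± 6.09 in IgG1 and 161 ± 12.3 in IgM cells. Emg1 was at 162 ± 15.6 in IgG1 and 121 ± 6.84 in IgM cells.

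The 4 called genes had short transcripts, of 668.5 nt for Polr2f, 545 nt for Polr2k, 1441 nt for Eif6 and 998 nt for Znhit3, against a median of 2487 nt over all genes tested. Of the 122 genes 0 were past the threshold with limma once the length and GC trend was removed. An unadjusted limma p under 0.05 was found for 20 of the 122, against 17.8% of all genes after the same correction. The differences were then 0.93 for Znhit3 (adjusted p = 0.0544), 0.47 for Polr2k (0.0883), 0.41 for Polr2f (0.120) and 0.36 for Eif6 (0.124). Polr2f and Polr2k each kept the call in 5 of the 6 fits that left out a library, up to an adjusted p of 0.0559 and 0.0611. Eif6 and Znhit3 each kept it in 1 of the 6, up to 0.207 and 0.107.

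The nuclear RNA exosome, which trims ribosomal RNA ends, had 1 of 14 genes higher, Exosc5 (53.0 ± 13.4 in IgG1 and 25.4 ± 5.04 FPKM in IgM cells, adjusted p = 0.0250), and 2 of the 6 fits without a library kept that call (up to 0.121). Of 8 subunits of RNA polymerase II, Polr2j was higher (475 ± 21.5 in IgG1 and 307 ± 45.3 in IgM cells, adjusted p = 0.0143). It kept the call in 4 of those 6 fits. Of all genes tested 4.26% were called as higher. With the length and GC trend removed Exosc5 was at 0.79 (adjusted p = 0.0658) and Polr2j at 0.25 (adjusted p = 0.285), against 1.02 and 0.64 before. RNA polymerase III had 0 of 13 genes past the threshold and 2 with an unadjusted p under 0.05 (limma), against 22.2% of all genes tested. Its highest members were the repressor gene Maf1, at 104 ± 7.70 in IgG1 and 117 ± 14.9 in IgM cells, and Polr3k, at 41.6 ± 3.06 in IgG1 and 38.2 ± 0.123 in IgM cells.

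Around MYC, 0 of 9 tested partner genes were past the threshold and 2 had an unadjusted p under 0.05 with limma, against 22.2% of all genes. Mxd4, which encodes an antagonist that pairs with MAX, was at 222 ± 26.2 in IgG1 and 154 ± 26.96 FPKM in IgM cells (log2 difference 0.53, adjusted p = 0.0676), and Mlx at 93.0 ± 3.75 in IgG1 and 99.8 ± 9.18 in IgM cells. The median over 22 known MYC targets outside ribosome building was 0.25, against -0.05 over all genes tested. With the length and GC trend removed these medians were 0.14 and 0.02. Of the 22 targets 4 (18.2%) were higher and 0 lower, against 4.26% and 1.76% of all genes. These were Ldha (962 ± 197 in IgG1 and 599.8 ± 91.3 in IgM cells), which encodes a lactate dehydrogenase subunit, Phb (149.6 ± 23.3 in IgG1 and 93.6 ± 14.2 in IgM cells), which encodes a prohibitin of mitochondria, and the nucleotide kinase genes Nme2 (1659 ± 118 in IgG1 and 1207 ± 122 in IgM cells) and Nme1 (926 ± 45.5 in IgG1 and 709 ± 38.2 in IgM cells). Nme1 and Nme2 are close copies that share a read-through gene, so their reads may be split. Each of the 4 calls was lost in at least 4 of the 6 fits without a library. After the length and GC correction Nme1 was at 0.34 (adjusted p = 0.0413), Ldha at 0.62 (0.0510), Phb at 0.57 (0.0682) and Nme2 at 0.16 (0.309). With quantile normalization Nme1 was at 0.01 and Nme2 at 0.07 (adjusted p = 0.9498 and 0.675), and with rescaling without Jchain at 0.15 and 0.23 (0.265 and 0.108). Ldha was at 0.34 with quantile normalization and 0.44 with that rescaling (limma adjusted p = 0.119 and 0.0657). Phb was at 0.52 and 0.44 in the same settings (limma adjusted p = 0.0657 and 0.0928). None of the 4 calls held in either setting.

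Of 22 proliferation genes 1 was higher and 1 lower in IgG1, a share of 9.09% against 6.02% of all genes tested. Pcna, the replication clamp, was at 246 ± 30.1 in IgG1 and 175 ± 7.32 FPKM in IgM cells (log2 difference 0.48, adjusted p = 0.0480). Mki67, a marker of cycling cells with a transcript of 10061 nt, was at 10.7 ± 6.51 in IgG1 and 35.9 ± 7.68 in IgM cells (log2 difference -1.77, adjusted p = 0.0155). The median of the list was 0.23, with 18 of 22 positive. Over all genes tested the median was -0.05, with 4211 of 9087 positive. Without a library in turn, Pcna kept its call in 1 and Mki67 in 2 of 6 fits, up to adjusted p of 0.154 and 0.0939. After the length and GC correction both were past the threshold (0.56 and -1.31, adjusted p = 0.0444 and 0.0425). With quantile normalization and with rescaling without Jchain, Pcna was at 0.30 and 0.25 (limma adjusted p = 0.181 and 0.231). Mki67 was at -1.73 and -1.98 in these settings (limma adjusted p = 0.0176 and 0.0125). Polr2k, Ldha and Pcna have annotated pseudogene copies that could share reads.

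**Figure D5:**
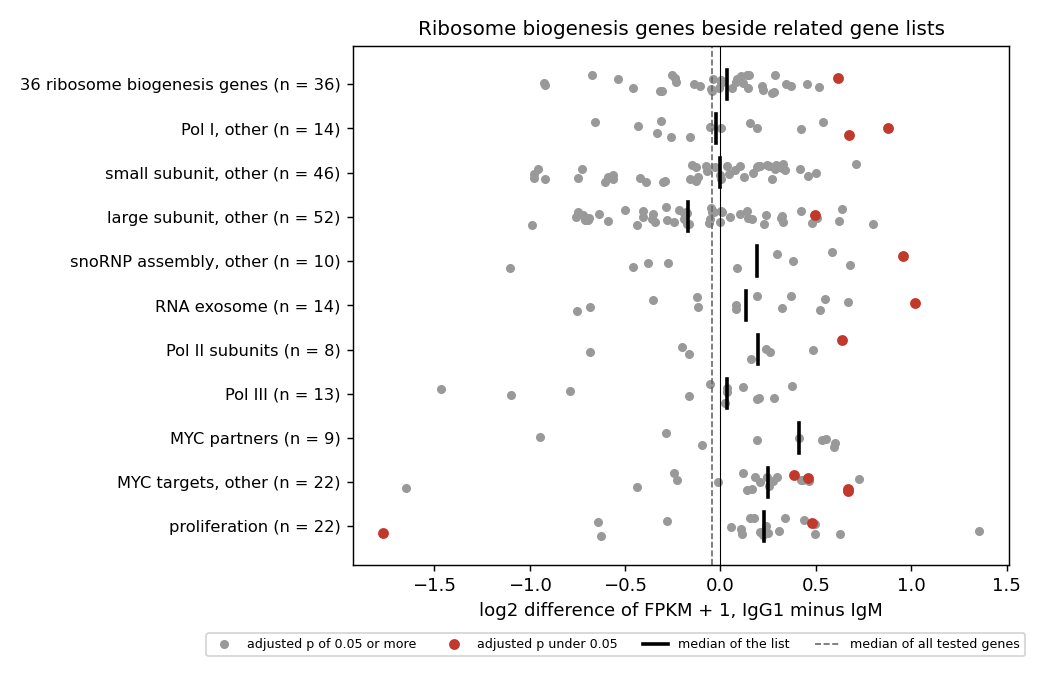
Log2 difference (IgG1 minus IgM) of every tested gene in the 36-gene set and in 10 related lists, with the list median as a black bar and genes past the adjusted threshold in red. The 36-gene set holds 1 red point at 0.62 and its median of 0.03 lies near the dashed median of all tested genes, -0.05.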

How the data were processed

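RNA was measured in 3 IgG1 and 3 IgM libraries made with SMART-Seq HT cDNA and Nextera XT, per the labels' protocols. Reads were handled with Bowtie2 2.3.5.1, TopHat2 2.1.1, Cuffdiff and Cufflinks 2.2.1 on mm10, per the submitters' processing notes. The sources used here do not state annotation, strand or scaling. Deposited values are FPKM, per the file headers. FPKM divides by length and depth, so library composition and transcript coverage move it.

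Values were used as deposited. Genes with FPKM of at least 1 in at least 3 libraries were tested as log2(FPKM + 1), a scale that understates the change of low genes, with limma 3.58.1 in R 4.3.3 (eBayes with intensity trend, Benjamini-Hochberg over 9087 genes, threshold 0.05). Counts were not used. Depth was estimated from the pile-up of low FPKM times transcript length, which covers counting error only and rests on GENCODE lengths: the thinnest member value, Utp20 in IgG1 library 3, came to about 48 fragments, and all others to at least 100. Length and GC (GENCODE vM21 basic transcripts, GRCm38) were found for 99.5% of tested genes and their trend was removed per library with splines of 4 degrees of freedom. Exons of 9 members (Mybbp1a, Nop56, Dkc1, Nhp2, Bysl, Tsr1, Pes1, Bop1 and Gnl3) overlap a gene on the opposite strand, as do those of Polr2f, Fcf1, Emg1, Znhit3, Exosc5, Polr2j and Mlx.

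The members and lists were chosen with earlier results of these data known. All members could be named. Of each further list the rule named up to 4 genes per direction past the threshold, or the 2 with the highest mean. Cell type markers, Rn45s, Rmrp and Rpph1 fall outside that rule and were chosen with values known. The alternatives were pseudocounts of 0.1 and 5, other filters and scalings, other variance settings, a replicate block, the trend removal and leaving out each library. The model was also checked on simulated data, with noise drawn independently for each gene. It recovered 20% of 50 simulated log2 changes of 0.5, 62% of 50 changes of 1 and 96% of 50 changes of 2. That check, which also held 50 changes of 3, gave 149 calls over 9087 genes, against 547 in the measured libraries. The share of differences near 0.5 that was missed in the measured libraries was not tested.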

Additional observations from a re-analysis of the deposited data

How the results depend on the processing

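Over all genes 387 were higher and 160 lower in IgG1, against 2 and 4 without a filter, 3 and 5 without the intensity trend, 183 and 83 with the length and GC trend removed and 177 and 393 with rescaling without Jchain. Quantile normalization gave 188 higher. In each of these 5 settings 0 members were higher, and the members' median was -0.15 with rescaling without Jchain. Leaving out single libraries gave 78 to 394 genes higher and 30 to 251 lower, 0 to 1 members higher and 0 to 1 lower (Nop14). The cause was not tested.

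Deviations from the group means correlated at 0.10, -0.03 and -0.00057 between same-numbered libraries, and at -0.098 to 0.096 between differently numbered ones. Whether same-numbered libraries share an animal or a batch is not stated. With 3 libraries per group these correlations cannot decide it. With the replicate block 432 genes were higher and 154 lower and 1 member higher; with the block and the trend removed together, 315 and 111, and 1 member (Nop10, adjusted p = 0.0247). In that last fit Znhit3 (limma adjusted p = 0.0154), Polr2k (0.0496), Ldha (0.00114) and Phb (0.0221) also passed. So did Mxd4 (0.0351), Nme1 (0.0247), Pcna (0.0216) and Mki67 (0.0192). Mxd4, not called in the main fit, was past the threshold in 3 of the 19 alternatives.

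Of the 36 members 17 kept their direction in all 19 alternatives. With rescaling without Jchain the log2 differences were -0.119 for Mybbp1a, -0.086 for Nop56, -0.084 for Rrp9, -0.092 for Gar1, -0.138 for Utp20, -0.145 for Ltv1, -0.143 for Bop1, -0.157 for Wdr12, -0.007 for Nop2, -0.211 for Rrs1, -0.082 for Gnl3 and -0.107 for Polr3k. With the length and GC trend removed, with or without the block, they were 0.333 for Polr1a, 0.018 for Ubtf, 0.314 for Nop58, -0.090 for Rrp9, 0.223 for Dkc1, -0.108 for Gar1, -0.033 for Rrs1 and 0.067 for Ebna1bp2. Median centring gave 0.065 for Polr1a, 0.031 for Polr1c, 0.023 for Ubtf and 0.034 for Dkc1, and array weights 0.012 for Polr1a, 0.049 for Dkc1, -0.008 for Ltv1 and -0.028 for Wdr12. Quantile normalization gave 0.125 for Polr1a and -0.012 for Bop1, a pseudocount of 5 gave 0.019 for Polr1a and a pseudocount of 0.1 gave -0.235 for Utp20. Without single libraries the range was -0.443 to 0.255 for Polr1a, -0.286 to 0.424 for Polr1c, -0.134 to 0.508 for Polr1e, -0.124 to 0.022 for Ubtf, -0.069 to 0.264 for Mybbp1a, -0.322 to 0.105 for Nop58, -0.290 to 0.164 for Dkc1, -0.026 to 0.239 for Gar1, -0.344 to 0.661 for Utp20, -0.571 to 0.120 for Wdr75, -0.188 to 0.258 for Ltv1, -0.303 to 0.316 for Wdr12, -0.010 to 0.402 for Nop2, -0.098 to 0.072 for Rrs1 and -0.345 to 0.171 for Ebna1bp2.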

Other observations

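Outside the rule for named genes, 3 noncoding RNAs were looked up after earlier values were known. Rn45s, the symbol of the ribosomal RNA precursor, was at 1064, 1221 and 1251 FPKM in IgG1 and 728, 1082 and 696 in IgM libraries. The groups overlap (log2 difference 0.52, limma adjusted p = 0.0700). Rmrp, the RNA of the RNase MRP that cleaves the precursor, was at 7.88, 13.7 and 27.2 in IgG1 and 3.90, 9.65 and 6.39 in IgM libraries, also with overlap (adjusted p = 0.178 with limma). Rpph1, the RNA of RNase P, was at 68.2, 75.5 and 74.9 in IgG1 and 25.7, 49.7 and 17.3 in IgM libraries (log2 difference 1.34, limma adjusted p = 0.0243). With the length and GC trend removed Rpph1 was at 0.53 and Rmrp at 0.31 (limma adjusted p = 0.297 and 0.730). Rn45s had no annotated length here and could not be corrected. Its FPKM does not separate reads of the precursor from reads of the mature ribosomal RNA cut from it. How evenly the cDNA method captures these RNAs was not tested, so their FPKM may not follow their amounts in the cells.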
